A study of Mus musculus with 8 samples.

Results

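Transcripts of 10 genes of the IL-1, TNF and inflammasome system were followed in MLL-AF10 cells grown from mouse bone marrow. MLL-AF10 is a leukaemia fusion protein of the histone methyltransferase MLL with AF10. The genes are Il1a, Il1b, Il18 and Tnf (cytokines), Il1rn and Il1r2 (IL-1 antagonists), Nlrp3 and Pycard (inflammasome sensor and adaptor), and Casp1 and Casp4 (inflammatory caspases). They were picked by name from the 24421 gene symbols of the count table, with earlier results of these data known. All 10 were among the 13722 genes with enough counts to be tested. Cells of 2 lines were derived from C57BL/6 bone marrow and grown in semi-solid medium with SCF, IL-3 and GM-CSF. MATIP cells are MLL-AF10 cells that are Tip60 flox/flox (gene Kat5, a histone acetyltransferase) and hold Cre-ERT2, a recombinase that 4-hydroxytamoxifen (4-OHT) activates. MAflox cells are named MLL-AF10 flox cells, and the labels do not state which allele is floxed or whether Cre-ERT2 is present. Each line received 100 nM 4-OHT or its solvent ethanol (EtOH) for 4 days, with 2 libraries in each of the 4 groups.

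IL-1α and IL-1β bind the same receptor and start signalling through MyD88 and IRAK kinases to the transcription factor NF-κB, and TNF reaches NF-κB through its own receptors. IL-1β and IL-18 are made as precursors that caspase-1 cuts after a sensor such as NLRP3 has recruited it through the adaptor ASC, the product of Pycard. Caspase-11, encoded by mouse Casp4, senses bacterial lipopolysaccharide in the cytosol and cuts gasdermin D. Neutrophils, monocytes and macrophages are the main bone marrow-derived sources of these cytokines, and they also make the IL-1 receptor antagonist (Il1rn) and the decoy receptor IL-1R2 (Il1r2), which bind the receptor or the cytokine without signalling.

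Library totals ran from 41101309 to 57312490 counts, with 14380 to 15822 genes detected per library. Kat5 checked the labels of the deletion: it fell in MATIP cells from 41.1 and 41.2 to 8.11 and 8.32 CPM (counts scaled to a library size of 1e6), a log2 change of −2.32 ± 0.09 (± the standard error, SE). In MAflox cells Kat5 stood at 43.7 and 41.2 CPM with EtOH and rose to 57.5 and 62.5 CPM with 4-OHT (log2 0.50 ± 0.07, and 0.33 at the lowest under the alternatives). CPM values here are scaled with TMM factors, which correct for differences in library composition. Markers of mature neutrophils rose in both lines, 10 of 10 in each. Their summed level went from 209 and 204 to 49088 and 52496 CPM in MAflox and from 731 and 868 to 33612 and 37165 CPM in MATIP cells. Of 10 tested monocyte and macrophage markers, among 12 listed, 7 rose and 1 fell in MAflox and 9 rose in MATIP cells. Their summed level went from 1416 and 1385 to 6805 and 6754 CPM in MAflox and from 1410 and 1599 to 11476 and 12121 CPM in MATIP cells. Summed myeloid progenitor markers went from 11121 and 10869 to 10509 and 10434 CPM in MAflox cells, where 2 of 7 rose and 4 fell. This sum holds opposite changes, such as those of Mpo (log2 −1.44 ± 0.05) and Elane (1.20 ± 0.06). In MATIP cells the sum went from 16353 and 16675 to 5006 and 5345 CPM, and 1 of 7 rose and 6 fell. Summed dendritic cell markers went from 17.3 and 19.7 to 11.4 and 9.97 CPM in MAflox cells. In MATIP cells they went from 5.52 and 5.93 to 99.2 and 95.8 CPM. Of 4 tested dendritic cell markers, among 8 listed, 2 rose and 1 fell in MAflox, and 3 rose and 1 fell in MATIP cells. The lower sum in MAflox cells therefore does not stand for most of its markers. Summed eosinophil markers went from 7.74 and 8.93 to 51.6 and 78.6 CPM in MAflox and from 4.13 and 4.19 to 32.5 and 34.7 CPM in MATIP cells. Of 6 tested eosinophil markers, among 7 listed, 5 rose in MAflox and 4 in MATIP cells, and none fell. The macrophage markers C1qa and, in MAflox cells, C1qb were at 0 counts. Markers of lymphocytes summed to at most 0.972 CPM in any library, with Cd3e, Cd8a and Ncr1 at 0 counts throughout. Fewer cells of a type and less RNA per cell cannot be told apart in bulk samples. The part of these marker changes in the results on the 10 genes was not tested. Whether the 2 libraries of a group are separate cultures is not stated in the labels. P-values therefore reflect the spread between these libraries alone, which may be technical.

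On the mm10 assembly with GENCODE M21 annotation all 10 are protein-coding genes. Il1a (chromosome 2, 129299610 to 129309972) and Il1b (chromosome 2, 129364570 to 129371139) both lie on the minus strand, 54597 bases apart, and Il1rn lies far from them on the same chromosome (24336853 to 24351494, plus strand). Casp1 (chromosome 9, 5298517 to 5307265) and Casp4 (chromosome 9, 5308828 to 5336783) are neighbours on the plus strand, 1562 bases apart, and Il18 is on the same chromosome (50554827 to 50581840, plus strand). Il1r2 is on chromosome 1 (40074079 to 40125231, plus strand), Pycard on chromosome 7 (127989708 to 127993867, minus strand), Nlrp3 on chromosome 11 (59541568 to 59566956, plus strand) and Tnf on chromosome 17 (35199381 to 35202007, minus strand). Annotated genes on the opposite strand share 222 exon bases with Il1a, 25 with Il1b and 485 with Pycard. The strand setting of the counting is not given in the sources used here, so reads from those bases cannot be assigned to a strand.

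Promoter windows of 250 bases that end just before a RefSeq transcript start (GRCm38.p6) were found for 10 of 10 genes, 14 windows in all. The 4 below are shown because their genes stand for the patterns that follow: Il1b and Casp4 rose in both lines, while Il1rn and Nlrp3 reached their highest levels in treated MATIP cells. Capitals mark matches, on either strand, to the NF-κB consensus, the C/EBP motif TTNNGNAA, the PU.1 motif GAGGAA or the AP-1 motif TGANTCA.
Il1b, chr2:129371140-129371389, minus strand: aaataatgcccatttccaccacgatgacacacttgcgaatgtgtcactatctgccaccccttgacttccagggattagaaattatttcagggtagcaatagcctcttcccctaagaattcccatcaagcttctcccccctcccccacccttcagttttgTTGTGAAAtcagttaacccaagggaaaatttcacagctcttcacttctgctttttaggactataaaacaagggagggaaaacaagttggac
Casp4, chr9:5308599-5308848, plus strand: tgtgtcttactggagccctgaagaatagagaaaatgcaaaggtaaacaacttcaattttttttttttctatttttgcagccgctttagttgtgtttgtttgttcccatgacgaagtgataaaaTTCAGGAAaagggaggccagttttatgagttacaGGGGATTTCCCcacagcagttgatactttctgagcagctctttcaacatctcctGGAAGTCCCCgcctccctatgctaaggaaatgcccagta
Il1rn, chr2:24345041-24345290, plus strand: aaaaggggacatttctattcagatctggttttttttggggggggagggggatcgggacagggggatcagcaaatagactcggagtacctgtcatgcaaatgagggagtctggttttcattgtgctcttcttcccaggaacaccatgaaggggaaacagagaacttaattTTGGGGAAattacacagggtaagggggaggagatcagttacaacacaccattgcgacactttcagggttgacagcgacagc
Nlrp3, chr11:59541319-59541568, plus strand: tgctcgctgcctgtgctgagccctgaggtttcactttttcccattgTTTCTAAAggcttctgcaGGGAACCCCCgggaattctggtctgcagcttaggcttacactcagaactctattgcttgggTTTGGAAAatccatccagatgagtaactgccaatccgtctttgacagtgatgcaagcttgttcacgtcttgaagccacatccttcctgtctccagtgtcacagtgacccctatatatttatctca
The Casp4 window holds 3 NF-κB matches, at 93 to 84, 92 to 83 and 39 to 30 bases before the start, of which the first and second overlap, and 1 C/EBP match at 127 to 120. The Nlrp3 window holds 1 NF-κB match at 186 to 177 bases before the start and 2 C/EBP matches. The windows of Il1b and Il1rn shown each hold 1 C/EBP match, at 91 to 84 and 81 to 74 bases before the start. Over all windows of the 10 genes, NF-κB matches occurred for 2 genes (Casp4 and Nlrp3), C/EBP matches for 7, PU.1 matches for 5 and AP-1 matches for 2 (Il1a and Il1rn). Both Casp4 windows hold the same matches, and another pair of windows, of Il1rn, also overlap, so a share over the 14 windows would count the same sites again and is not given. Of all 32851 windows of the same length given by RefSeq, 7.25%, 36.8%, 23.3% and 6.75% held these motifs, and of the 13167 windows of tested genes 8.72%, 28.9%, 22.8% and 4.76%. These are shares of single windows, whereas the counts above are of genes, some with several windows. The shares are therefore not a background for those counts. A match is a description of letters, and its absence says only that the letters are not in the window.

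With 4-OHT, 9 of the 10 genes rose in each line and none fell. Rising, falling or changing means here that the quasi-likelihood test of edgeR gave a Benjamini-Hochberg adjusted p, over 13722 genes, under 0.05. The background was high: 65.2% of all tested genes changed in MAflox (33.1% rose) and 76.1% in MATIP cells (37.5% rose). The median log2 change of the 10 genes was 2.61 in MAflox and 3.46 in MATIP cells, against 0.02 and 0.00 over all tested genes. Because the 10 genes were chosen with earlier results known, this contrast is a description and not a test. The gene that did not pass was Nlrp3 in MAflox and Casp1 in MATIP cells. Both treated libraries lay above both EtOH libraries for the 9 genes that rose in each line, a position that 41.4% of tested genes held in MAflox and 44.2% in MATIP cells. For Nlrp3 in MAflox cells both treated libraries lay below, as for 39.7% of tested genes. The levels of all 10 genes in the 8 libraries are plotted on a log axis.

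**Figure D1:**
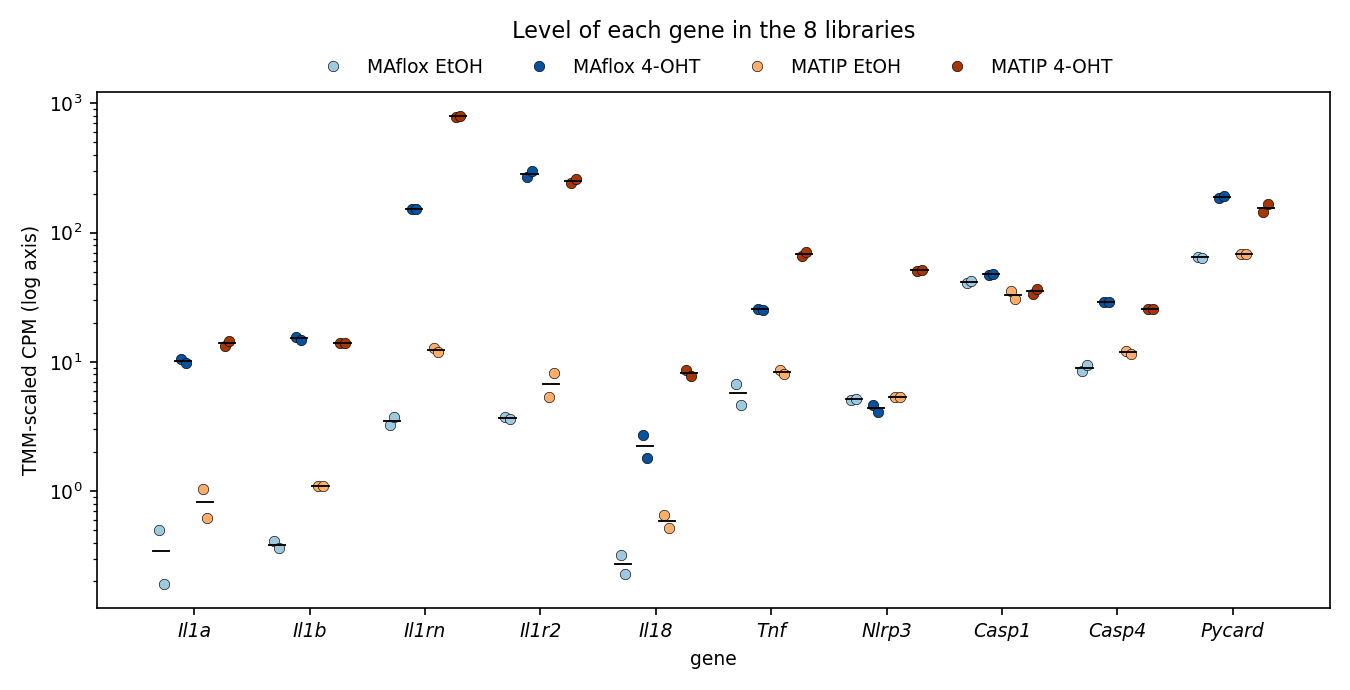
Level of each gene (x axis) in TMM-scaled CPM on a log axis (y axis), with 1 point per library, 2 libraries a group, and a line at the group mean. Nlrp3 is high in treated MATIP cells (50.8 and 51.5 CPM) and near 5 CPM in the other groups, Casp1 is nearly level, and the other 8 genes rise from EtOH to 4-OHT in both lines.

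The 3 cytokine genes of the IL-1 family were low with EtOH, at most 1.11 CPM in any library, and rose in both lines. Il1b, the precursor of IL-1β, stood at 0.409 and 0.361 CPM in MAflox EtOH and at 15.7 and 14.7 CPM in MAflox 4-OHT libraries, and at 1.09 and 1.11 CPM in MATIP EtOH and 14.0 and 14.0 CPM in MATIP 4-OHT libraries. The treated libraries of both lines reached similar Il1b levels from different starting points. The log2 change was 5.30 ± 0.19 in MAflox (39.5-fold; edgeR's quasi-likelihood test, Benjamini-Hochberg adjusted p = 1.92e-14) and 3.67 ± 0.16 in MATIP cells (12.8-fold; adjusted p = 1.30e-13). Il1a, which encodes an IL-1 that is active without caspase-1, went from 0.50 and 0.19 to 10.5 and 9.83 CPM in MAflox and from 1.04 and 0.620 to 13.4 and 14.6 CPM in MATIP cells. The MAflox EtOH values rest on 22 and 10 counts and those of MATIP EtOH on 48 and 37, so the 2 libraries of each EtOH group stand apart more than the treated ones. Its log2 changes were 4.92 ± 0.28 and 4.10 ± 0.24, and the first was 5.72 without MAflox EtOH replicate 1 and 4.34 without MAflox EtOH replicate 2. Il18, which encodes the other cytokine precursor cut by caspase-1, went from 0.318 and 0.228 to 2.70 and 1.80 CPM in MAflox (log2 3.05 ± 0.34) and from 0.652 and 0.519 to 8.70 and 7.81 CPM in MATIP cells (log2 3.82 ± 0.28). For each of these 3 genes the treated libraries lay above the EtOH libraries of their line, as for 41.4% of tested genes in MAflox and 44.2% in MATIP cells.

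In MATIP cells the IL-1 antagonists had the largest log2 changes of the 10 genes. In MAflox cells Il1r2 did, and Il1rn was within error of Il1b and was below both Il1a (5.72) and Il1b (5.39) without MAflox EtOH replicate 1 (5.34). Il1rn, the receptor antagonist, stood at 3.25 and 3.78 CPM in MAflox EtOH and rose to 152 and 154 CPM with 4-OHT (log2 5.44 ± 0.08, 43.3-fold; edgeR's quasi-likelihood test, Benjamini-Hochberg adjusted p = 1.64e-20). In MATIP cells Il1rn went from 12.8 and 12.01 to 788 and 801 CPM (log2 6.00 ± 0.07, 64.2-fold; edgeR's quasi-likelihood test, Benjamini-Hochberg adjusted p = 1.68e-21). The 4 groups of Il1rn values were apart from each other, in the order MAflox EtOH, MATIP EtOH, MAflox 4-OHT and MATIP 4-OHT. Such gaps were common. Treated libraries lay above EtOH libraries for 41.4% of tested genes in MAflox and 44.2% in MATIP cells. MATIP lay above MAflox libraries for 35.8% with EtOH and 44.7% with 4-OHT. Il1r2, the decoy receptor, went from 3.77 and 3.61 to 272 and 298 CPM in MAflox (log2 6.27 ± 0.12, 77.2-fold) and from 5.39 and 8.15 to 242 and 259 CPM in MATIP cells (log2 5.19 ± 0.11, 36.4-fold). Its change in MAflox cells ranked 128 of 13722 tested genes from the top.

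Levels of different genes were compared per kilobase of the longest annotated coding transcript. On that scale the ratio of Il1rn to the sum of Il1a and Il1b was 2.37 and 4.22 in MAflox EtOH, 3.64 and 3.92 in MAflox 4-OHT, and 3.88 and 4.30 in MATIP EtOH libraries. In MATIP 4-OHT libraries it was 18.6 and 18.3. The first 3 groups overlapped, and the treated MATIP libraries lay above all others. The same ratio for Il1r2 was 4.79 and 7.02 in MAflox EtOH, 11.3 and 13.3 in MAflox 4-OHT, 2.86 and 5.09 in MATIP EtOH and 9.97 and 10.3 in MATIP 4-OHT libraries. For the decoy receptor both lines moved the same way, without overlap between treated and EtOH libraries.

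**Figure D2:**
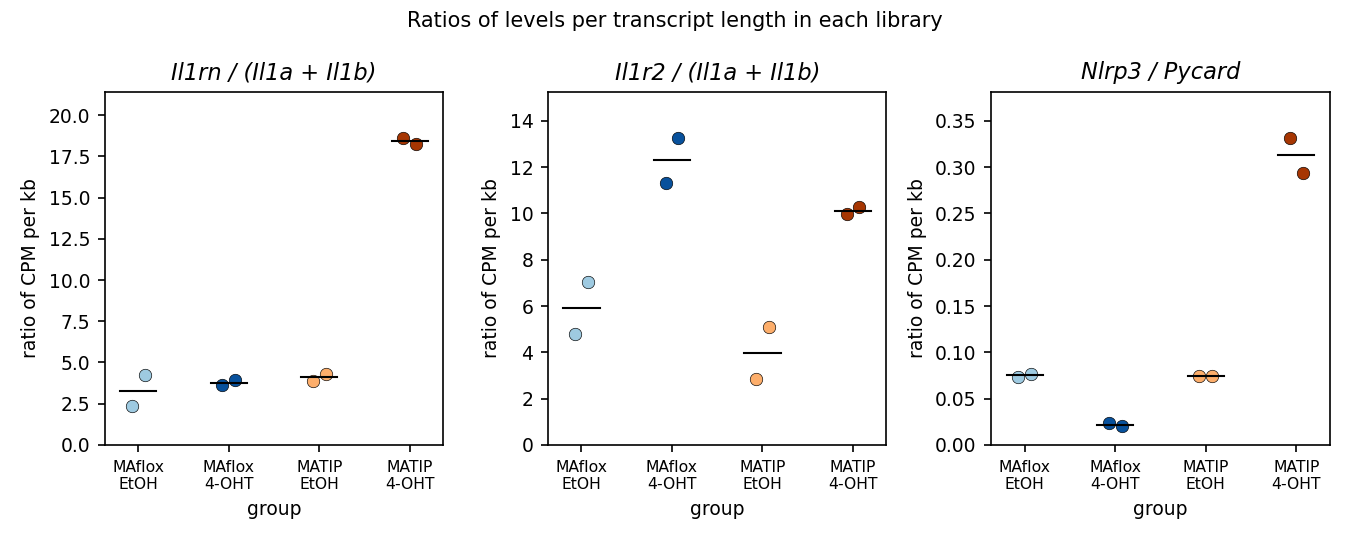
Ratios of CPM per kilobase (y axes) in the 4 groups (x axes), with 1 point per library and a line at the mean of 2 libraries. The ratio of Il1rn to the sum of Il1a and Il1b is 18.6 and 18.3 in treated MATIP libraries and at most 4.30 elsewhere, that of Il1r2 is higher in the treated libraries of both lines, and that of Nlrp3 to Pycard is lowest in treated MAflox (0.0201 and 0.0237) and highest in treated MATIP libraries (0.294 and 0.331).

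Tnf rose in both lines and further in MATIP cells. Its levels were 6.72 and 4.67 CPM in MAflox EtOH, 25.8 and 25.3 CPM in MAflox 4-OHT, 8.63 and 8.04 CPM in MATIP EtOH, and 66.3 and 71.2 CPM in MATIP 4-OHT libraries. The treated groups were apart from each other and from all EtOH libraries, which lay between 4.67 and 8.63 CPM. Treated MATIP libraries lay above treated MAflox libraries for 44.7% of tested genes. Treated libraries lay above EtOH libraries for 41.4% in MAflox and 44.2% in MATIP cells. The log2 changes were 2.17 ± 0.12 in MAflox (4.51-fold) and 3.05 ± 0.12 in MATIP cells (8.27-fold), with adjusted p = 1.02e-11 and 1.13e-14 (edgeR quasi-likelihood, Benjamini-Hochberg).

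Nlrp3 separated the lines. The sensor gene stood at 5.09 and 5.18 CPM in MAflox EtOH, 4.65 and 4.08 CPM in MAflox 4-OHT, and 5.39 and 5.36 CPM in MATIP EtOH libraries, and at 50.8 and 51.5 CPM in MATIP 4-OHT libraries. Of the 4 groups, the treated MATIP libraries alone were high. The log2 change in MATIP cells was 3.25 ± 0.11 (9.52-fold; edgeR's quasi-likelihood test, Benjamini-Hochberg adjusted p = 1.20e-15), and in MAflox cells it was −0.23 ± 0.12 (adjusted p = 0.100). With scaling by library totals alone, which moved the median change of all tested genes to −0.15 in MAflox and −0.13 in MATIP cells, Nlrp3 passed as lower in MAflox cells (log2 −0.41, adjusted p = 0.00683). Pycard, the adaptor, was already expressed with EtOH and rose in both lines, from 65.1 and 63.7 to 186 and 192 CPM in MAflox (log2 1.55 ± 0.07) and from 69.0 and 67.8 to 145 and 166 CPM in MATIP cells (log2 1.18 ± 0.07). The ratio of Nlrp3 to Pycard per kilobase was 0.0739 and 0.0769 in MAflox EtOH and 0.0739 and 0.0747 in MATIP EtOH libraries. With 4-OHT it was lower in MAflox (0.0237 and 0.0201) and higher in MATIP libraries (0.331 and 0.294), with no overlap between the treated lines or with the EtOH libraries.

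The neighbouring caspase genes parted. Casp4 rose from 8.52 and 9.46 to 29.0 and 29.3 CPM in MAflox (log2 1.69 ± 0.10) and from 12.2 and 11.5 to 25.9 and 25.8 CPM in MATIP cells (log2 1.13 ± 0.09). Casp1, the caspase that cuts IL-1β, stood at 40.8 and 42.1 CPM in MAflox EtOH, 46.9 and 48.3 CPM in MAflox 4-OHT, 35.1 and 30.9 CPM in MATIP EtOH, and 33.8 and 36.8 CPM in MATIP 4-OHT libraries. Its EtOH and treated libraries overlapped in MATIP cells (log2 0.10 ± 0.08; edgeR's quasi-likelihood test, Benjamini-Hochberg adjusted p = 0.263), and it passed as higher with the length and GC trend removed (log2 0.24, edgeR adjusted p = 0.00717). In MAflox cells Casp1 passed as higher with a log2 change of 0.20 ± 0.08 (edgeR's quasi-likelihood test, Benjamini-Hochberg adjusted p = 0.0353), a call that depended on the processing. It was lost with DESeq2 (adjusted p = 0.0557), with scaling by library totals (log2 0.02, adjusted p = 0.803) and when any of the 4 MAflox libraries was left out (adjusted p from 0.0653 to 0.149). It turned to −0.26 when the trend of counts on GC content and transcript length was removed per library (adjusted p = 0.00398). The ratio of Casp4 to Casp1 per kilobase was 0.218 and 0.234 in MAflox EtOH, 0.645 and 0.633 in MAflox 4-OHT, 0.363 and 0.387 in MATIP EtOH, and 0.798 and 0.732 in MATIP 4-OHT libraries.

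The responses of the lines were compared by the interaction of line and treatment, which changed for 7 of the 10 genes, against 61.9% of all tested genes. A difference here is the log2 response of MATIP minus that of MAflox cells. The response was larger in MATIP cells for Nlrp3 (3.48 ± 0.16), Tnf (0.87 ± 0.17) and Il1rn (0.57 ± 0.11), where 28.3% of all tested genes lay in that direction. It was smaller in MATIP cells for Il1b (−1.63 ± 0.29), Il1r2 (−1.08 ± 0.17), Casp4 (−0.57 ± 0.14) and Pycard (−0.37 ± 0.09), where 33.6% of all tested genes lay in that direction. The Benjamini-Hochberg adjusted p of edgeR's quasi-likelihood test was 1.56e-12 for Nlrp3, 0.00016 for Tnf and 0.000157 for Il1rn, and for the 4 others it ran from 1.98e-05 (Il1r2) to 0.00176 (Pycard). With the length and GC trend removed the difference of Casp4 was 0.05 (edgeR adjusted p = 0.769) and that of Il1rn 0.97. For Il1a, Il18 and Casp1 the difference did not pass, with 95% intervals of −1.69 to 0.06, −0.25 to 1.79 and −0.33 to 0.14 on the log2 scale. The Il1a difference passed without MAflox EtOH replicate 1 (log2 −1.63) or without MATIP EtOH replicate 2 (log2 −1.19), and the Il18 difference passed with the length and GC trend removed (log2 1.37). With that trend removed the Casp1 difference was 0.50 (edgeR's quasi-likelihood test, Benjamini-Hochberg adjusted p = 0.000407).

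**Figure D3:**
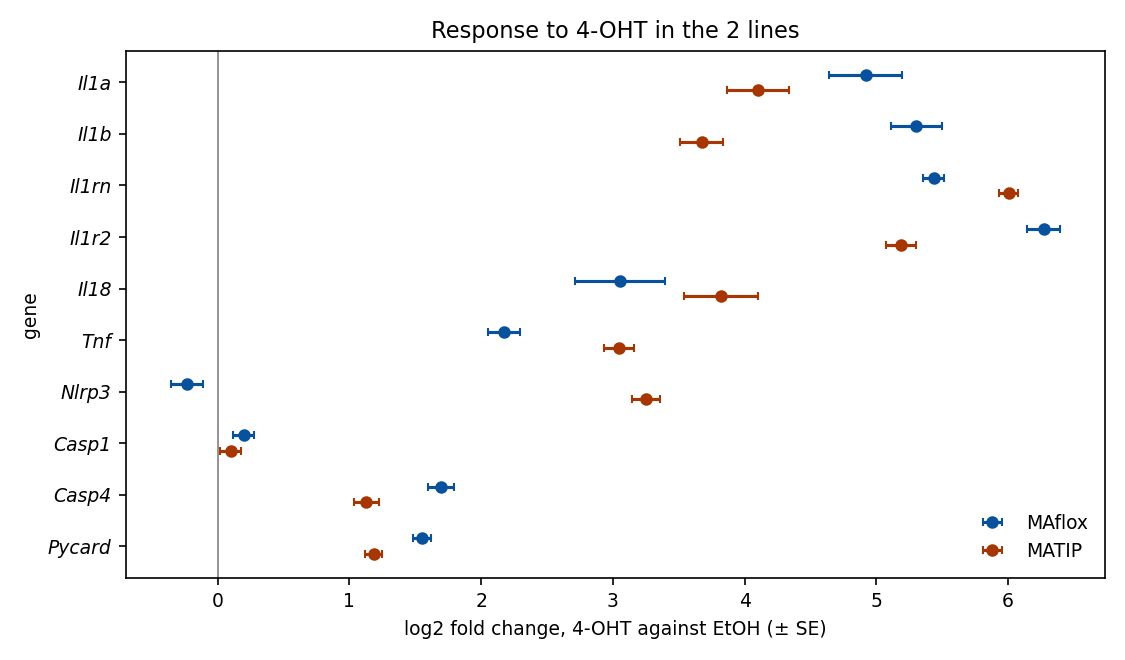
Log2 fold change of 4-OHT against EtOH (x axis) with its SE for each gene (y axis) in MAflox and MATIP cells, from the fit to 8 libraries. Nlrp3 stands at −0.23 in MAflox and 3.25 in MATIP cells, Il1b and Il1r2 respond more in MAflox cells, and Tnf and Il1rn more in MATIP cells.

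With EtOH the lines already differed in 8 of the 10 genes, against 32.0% of all tested genes. Il1rn (log2 1.81 ± 0.09), Il1b (1.51 ± 0.26), Il1a (1.28 ± 0.37), Il18 (1.1 ± 0.40), Il1r2 (0.90 ± 0.15), Tnf (0.56 ± 0.13) and Casp4 (0.39 ± 0.10) were higher in MATIP than in MAflox cells, a direction held by 20.3% of tested genes. Casp1 was lower (log2 −0.33 ± 0.08), as were 11.7% of tested genes. Nlrp3 (log2 0.07 ± 0.12) and Pycard (0.09 ± 0.07) did not pass (edgeR's quasi-likelihood test, Benjamini-Hochberg adjusted p = 0.721 and 0.345). Both MATIP libraries lay above both MAflox libraries for 9 genes, a position that 35.8% of tested genes held, and below them for Casp1, as for 28.4% of tested genes. The summed neutrophil markers were also higher in MATIP EtOH libraries (731 and 868 CPM) than in MAflox EtOH libraries (209 and 204 CPM). Of the 10 neutrophil markers, 8 were higher and 1 was lower. The sum of progenitor markers was higher too, but of its 7 genes 5 were higher and 2 lower. Cd34 was among the lower (15.5 and 11.9 against 128 and 134 CPM). The sum of mast cell and basophil markers was lower (9.70 and 9.34 against 41.8 and 41.9 CPM), with 4 of 6 tested genes lower and 0 higher. The sum of dendritic cell markers was lower too, but of its 4 tested genes 1 was higher and 1 lower. The part of these markers in the differences was not tested. Without MAflox EtOH replicate 2 the differences of Il1a, Il18 and Tnf no longer passed, and 5 of the 10 genes did. The Il1a difference was also lost without MATIP EtOH replicate 1 (adjusted p = 0.114) and in the fit to the EtOH libraries alone (adjusted p = 0.103), that of Casp4 without MAflox EtOH replicate 1 (adjusted p = 0.0691) and that of Casp1 without MATIP EtOH replicate 2 (adjusted p = 0.0675), all by edgeR quasi-likelihood with Benjamini-Hochberg adjustment. That of Casp1 was also lost with the length and GC trend removed (log2 −0.19, edgeR adjusted p = 0.0614). That of Il18 was lost without MAflox EtOH replicate 1 or 2, MATIP EtOH replicate 1, or MATIP 4-OHT replicate 1 or 2 (edgeR adjusted p from 0.0605 to 0.227), with library totals (adjusted p = 0.0543) and in the fit to the EtOH libraries alone (adjusted p = 0.131). Without MAflox EtOH replicate 1 the Il1a difference was 2.08, and without MATIP EtOH replicate 2 that of Il1r2 was 0.55.

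After 4-OHT the lines differed in 7 of the 10 genes, against 75.5% of all tested genes. Nlrp3 (log2 3.55 ± 0.11, 11.7-fold), Il1rn (2.38 ± 0.06, 5.20-fold), Il18 (1.87 ± 0.24), Tnf (1.43 ± 0.10) and Il1a (0.46 ± 0.18) were higher in MATIP cells, a direction held by 38.1% of tested genes. Casp1 (log2 −0.43 ± 0.08) and Pycard (−0.28 ± 0.06) were lower, as were 37.5% of tested genes. Il1b (log2 −0.12 ± 0.13), Il1r2 (−0.18 ± 0.09) and Casp4 (−0.17 ± 0.09) ended at levels whose difference did not pass (edgeR's quasi-likelihood test, Benjamini-Hochberg adjusted p = 0.412, 0.0638 and 0.0919). Both treated MATIP libraries lay above both treated MAflox libraries for the 5 genes that were higher (44.7% of tested genes) and below them for the other 5 (43.3% of tested genes). The call of Il1a was lost without any 1 of the 4 treated libraries (adjusted p from 0.0690 to 0.186), and Il1r2 passed as lower in several alternatives, such as the fit to the 4 treated libraries alone (log2 −0.20, adjusted p = 0.00542), by the same edgeR test. With the length and GC trend removed, Casp1 was higher in MATIP cells (log2 0.32), as were Casp4 (0.59), Il1b (0.43) and Il1r2 (0.22), and the Il1a difference was 1.09.

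The order of levels per kilobase of the longest coding transcript changed from caspase and adaptor genes to antagonists. In both EtOH groups Casp1 led (27.7 ± 0.611 CPM per kilobase in MAflox and 22.0 ± 1.98 in MATIP cells, mean ± SD, n = 2), followed by Pycard and Casp4. Il1a was last, at 0.175 ± 0.111 and 0.421 ± 0.152 CPM per kilobase. In MAflox EtOH the ranges of Il18 and Il1b overlapped, and in MATIP EtOH those of Tnf, Il1rn and Il1r2, so these neighbours in the order did not differ beyond their spread. With 4-OHT, Il1r2 (201 ± 13.1 CPM per kilobase), Il1rn (61.8 ± 0.358) and Pycard (49.6 ± 1.13) led in MAflox cells, and Il18 (2.54 ± 0.726) and Nlrp3 (1.08 ± 0.101) came last. In MATIP cells Il1rn (321 ± 3.64) and Il1r2 (176 ± 8.29) led, Tnf (42.0 ± 2.12) and Pycard (40.9 ± 3.87) overlapped, and Nlrp3 (12.7 ± 0.131) stood above Il1b (10.3 ± 0.00424), Il18 (9.33 ± 0.710) and Il1a (7.08 ± 0.440). The Pycard values are per 3800 bases, its longest coding transcript. An incomplete coding transcript of 493 bases is also annotated, on whose length Pycard would stand at 132 and 129 CPM per kilobase in MAflox EtOH and 294 and 336 in MATIP 4-OHT libraries. On the shortest coding transcripts Casp4 (33.8 and 31.7) and Il1rn (39.8 and 37.4 CPM per kilobase) would also stand above Casp1 (23.4 and 20.6) in MATIP EtOH libraries, so the order of genes rests on the transcripts chosen.

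Over the 8 libraries the log2 levels of 8 genes moved closely together, and the other two did not. Pearson's r between pairs of Il1a, Il1b, Il1rn, Il1r2, Il18, Tnf, Casp4 and Pycard ran from 0.845 (Il18 and Pycard) to 0.994 (Il1b and Casp4, and Il18 and Tnf). Nlrp3 correlated with these by 0.383 (Pycard) to 0.783 (Il18), and Casp1 by −0.05 (Il18) to 0.43 (Pycard). These values describe 4 groups of 2 libraries, which share their treatment, and are not a test. Similar patterns were sought among 9503 other genes with a mean of at least 5 CPM over the 8 libraries. A gene that is low with EtOH could pass this filter through its treated libraries alone. The pattern most like that of Il1b was that of Clec4a2 (r = 0.999), which encodes a C-type lectin receptor of myeloid cells. Il1rn was most like Ccl6 (r = 0.999), a chemokine gene that went from 43.0 to 1900 CPM in MAflox and from 131 to 7903 CPM in MATIP cells (means of 2 libraries). Nlrp3 was most like Fam129b (r = 0.998), whose log2 change was −0.16 ± 0.07 in MAflox and 3.04 ± 0.07 in MATIP cells. Il18 and Tnf shared Aldh3a1 (r = 0.997 and 0.999), an aldehyde dehydrogenase gene. Casp4 was most like Nlrp12 (r = 0.998), Pycard like Map1lc3b (r = 0.997), Il1r2 like Sqrdl (r = 0.999), Il1a like Rab29 (r = 0.997) and Casp1 like Psmd8 (r = 0.980). Pearson's r does not compare the size of changes. Rab29 changed by a log2 of 0.97 in MAflox and 0.85 in MATIP cells, against 4.92 and 4.10 for Il1a. Nlrp12 changed by 5.34 and 3.73, against 1.69 and 1.13 for Casp4. Its mean level with EtOH was only 0.303 CPM in MAflox and 0.779 CPM in MATIP cells.

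Around the 10 genes, 73 other genes of the pathways were listed, of which 72 were in the table and 70 were tested. Of these 44 rose and 12 fell in MAflox, and 45 rose and 13 fell in MATIP cells. The response was larger in MATIP cells for 30 and smaller for 17 (26 to 34 and 16 to 22 over the alternatives), against 28.3% and 33.6% of all tested genes. For comparison, 33.1% of all tested genes rose and 32.1% fell in MAflox, and 37.5% rose and 38.6% fell in MATIP cells. Over the alternatives, 33 to 46 rose in MAflox and 40 to 50 in MATIP cells. Pathway genes named below other than the one per list and line with the smallest p were chosen after their values were seen.

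Of 4 tested IL-1 family ligands and the IL-18 binding protein, 3 rose in MAflox and 4 in MATIP cells. Il1f9, the gene of IL-36γ, went from 1.73 and 1.29 to 33.1 and 36.2 CPM in MAflox (log2 4.53 ± 0.11) and from 3.13 and 2.71 to 223 and 228 CPM in MATIP cells (log2 6.28 ± 0.10). Il1f6, the gene of IL-36α, had 0 counts in both EtOH groups, 11 in MAflox 4-OHT and 55 in MATIP 4-OHT libraries together. Its call in MAflox cells was lost with the replicate block and without any of 5 single libraries (MAflox EtOH replicate 1 or 2, MAflox 4-OHT replicate 2, MATIP 4-OHT replicate 1 or 2), and that of Il33 in MATIP cells with library totals and without MATIP EtOH replicate 2 or MATIP 4-OHT replicate 2, which left 2 and 3 genes. Of 7 receptors of the family, 4 rose in MAflox and 6 in MATIP cells, and none fell. Il18rap, a subunit of the IL-18 receptor, rose by a log2 of 1.47 ± 0.08 and 2.63 ± 0.09. Il18r1, the other subunit, rose by 2.68 ± 0.17 and 2.71 ± 0.36 but was lower in MATIP than in MAflox cells. That difference was −4.35 ± 0.30 with EtOH and −4.31 ± 0.20 with 4-OHT. Its treated libraries stood at 22.0 and 27.7 CPM in MAflox and at 1.21 and 1.28 CPM in MATIP cells. Il1r1, the signalling IL-1 receptor, stayed between 0.167 and 0.592 CPM in every library and did not pass in either line (edgeR's quasi-likelihood test, Benjamini-Hochberg adjusted p = 0.810 and 0.153), while its partner Il1rap rose by 0.77 ± 0.08 and 0.74 ± 0.07. Il1rl1, the IL-33 receptor, had 0 counts in the MATIP EtOH libraries and 33 in the MATIP 4-OHT libraries together. The MAflox libraries held 25 of its counts with EtOH and 138 with 4-OHT (log2 2.56 ± 0.61). After 4-OHT it was lower in MATIP than in MAflox cells (log2 −2.12 ± 0.59).

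Of 5 genes of TNF release and reception, 4 had a larger and 1 a smaller response in MATIP cells, against 28.3% and 33.6% of all tested genes. The difference of Rhbdf1, which had 4 counts in the MAflox 4-OHT libraries together, no longer passed without MAflox EtOH replicate 1 or MATIP 4-OHT replicate 1, which left 3 larger. Tnfrsf1b, the gene of TNFR2, stood at 103 and 105 CPM in MAflox EtOH, 134 and 116 in MAflox 4-OHT, 168 and 181 in MATIP EtOH and 757 and 785 in MATIP 4-OHT libraries. Its log2 change was 2.14 ± 0.07 in MATIP and 0.26 ± 0.07 in MAflox cells, where the call was lost with scaling by library totals and without MAflox 4-OHT replicate 1. Tnfrsf1a, the gene of TNFR1, rose in MAflox cells by 0.72 ± 0.06 and had a change of 0.10 ± 0.06 in MATIP cells (edgeR's quasi-likelihood test, Benjamini-Hochberg adjusted p = 0.13), which passed as higher in 5 alternatives, DESeq2 among them. Adam17, the sheddase that releases TNF, fell in MAflox cells (log2 −0.47 ± 0.06) and rose in MATIP cells (0.76 ± 0.06).

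In the signalling list of 15 genes, 9 rose and 1 fell in MAflox, and 6 rose and 4 fell in MATIP cells. With library totals in MAflox cells, Tradd and Myd88 lost their calls, Tab2, which had risen, turned in sign, and Traf6 gained a call as lower. With DESeq2 in MATIP cells, Traf6 and Tab2 lost their calls as lower, while Irak4 and Tradd gained calls as higher. Irak2, a kinase of the MyD88 complex, rose by a log2 of 2.21 ± 0.12 and 2.82 ± 0.11, and Tnfaip3, the inhibitor A20, by 2.04 ± 0.13 and 2.70 ± 0.13. Myd88 rose in MAflox cells (log2 0.32 ± 0.06, lost with scaling by library totals) and fell in MATIP cells (−0.36 ± 0.07). Of 12 NF-κB subunits, inhibitors and kinases, 6 rose and 5 fell in MAflox, and 8 rose and 3 fell in MATIP cells. The response was larger in MATIP cells for 8 of them and smaller for none, with 8 or 9 larger and at most 1 smaller in the alternatives, against 28.3% and 33.6% of all tested genes. The largest of these differences were those of Relb (log2 0.99 ± 0.19 in MAflox and 3.74 ± 0.19 in MATIP cells) and Nfkbiz (2.47 ± 0.20 and 4.53 ± 0.20). Nfkbia, the inhibitor IκBα, rose by 2.68 ± 0.06 and 2.96 ± 0.06.

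Among 14 other inflammasome sensors and regulators, 10 rose and 2 fell in MAflox, and 9 rose and 3 fell in MATIP cells. In MAflox cells the calls of Nlrp1a (lower) and Nlrx1 (higher) were lost with DESeq2 and with the replicate block. Those of Nlrp1b and Nlrx1, both higher, were lost with library totals. In MATIP cells Nek7 lost its call as higher with library totals, and Nlrx1 gained one with RLE factors. P2rx7, the ATP-gated channel upstream of NLRP3, was likewise high in treated MATIP libraries: it stood at 2.61 and 2.28 CPM in MAflox EtOH, 3.21 and 1.27 in MAflox 4-OHT, 2.48 and 1.89 in MATIP EtOH and 18.7 and 18.7 in MATIP 4-OHT libraries (difference 3.22 ± 0.38, and 2.73 to 4.08 under the alternatives). Its change in MAflox cells was −0.11, positive with the length and GC trend removed or without MAflox 4-OHT replicate 2, and passed as lower without MAflox 4-OHT replicate 1 (log2 −0.94). Txnip rose by 2.31 ± 0.09 in MAflox and by 1.38 ± 0.09 in MATIP cells. Card9, an adaptor of C-type lectin receptors, rose in MAflox (log2 0.39 ± 0.06) and fell in MATIP cells (−1.92 ± 0.07), and Mefv, the gene of pyrin, did the same (0.43 ± 0.07 and −0.95 ± 0.08). Under the alternatives the rises in MAflox cells were as low as 0.22 for Card9 and 0.25 for Mefv.

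Downstream of the caspases, 6 of 7 genes of pyroptosis and cytokine release rose in MAflox, and 4 rose and 2 fell in MATIP cells. Gsdmd, the pore-forming substrate of Casp1 and Casp4, stood at 29.2 and 29.8 CPM in MAflox EtOH, 66.3 and 67.8 in MAflox 4-OHT, 48.8 and 53.9 in MATIP EtOH and 26.7 and 26.8 in MATIP 4-OHT libraries. It rose in MAflox cells (log2 1.18 ± 0.07) and fell in MATIP cells (−0.94 ± 0.07), a difference of −2.12 ± 0.10. Dfna5, the gene of gasdermin E, rose in both lines (4.14 ± 0.13 and 2.33 ± 0.12). Of 6 genes that act on the decay of cytokine transcripts, 3 rose and 3 fell in MAflox, and 4 rose and 1 fell in MATIP cells. Zfp36, tristetraprolin, which destabilises Tnf transcripts, went from 27.2 and 25.8 to 148 and 145 CPM in MATIP cells (log2 2.47 ± 0.07) and from 21.4 and 22.2 to 27.7 and 24.2 CPM in MAflox cells (0.25 ± 0.08, lost with scaling by library totals and without MAflox EtOH replicate 1 or MAflox 4-OHT replicate 1). Hnrnpd, the decay factor AUF1, fell in both (−1.12 ± 0.06 and −1.61 ± 0.06).

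**Figure D4:**
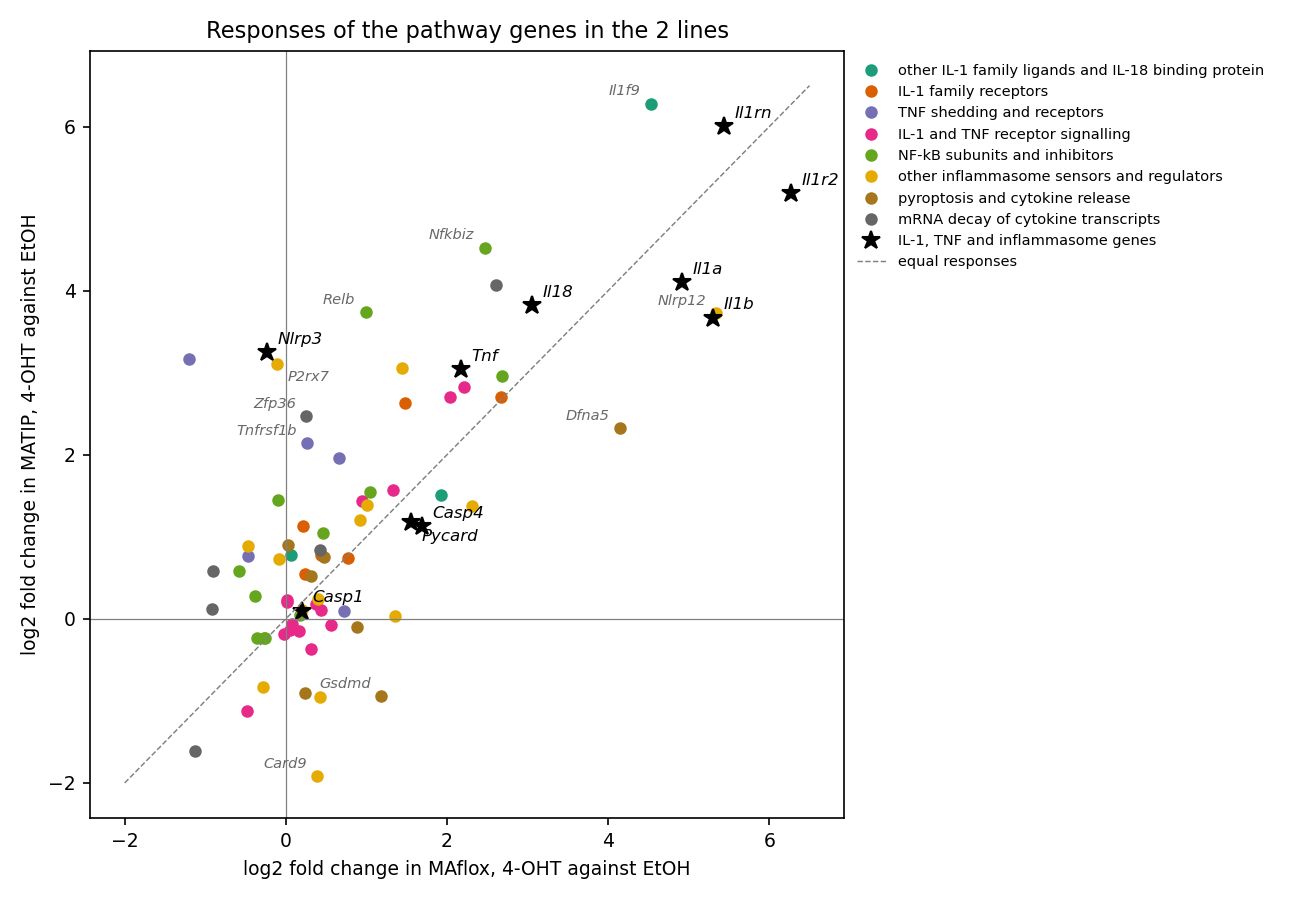
Log2 fold change with 4-OHT in MAflox (x axis) against MATIP cells (y axis) for the 10 genes (stars) and 68 tested pathway genes with more than 3 counts in every group (points, coloured by list), with a dashed line of equal responses. Nlrp3, P2rx7, Relb and Nfkbiz lie above the line, and Gsdmd, Card9 and Dfna5 below it.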

How the data were processed

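RNA sequencing counts of 8 libraries (4 groups of 2) were used. Per the submitters' processing notes, the authors worked on mm10 with HISAT2 2.1.0, Trimmomatic 0.38.0, DESeq2 and featureCounts 1.6.4. The deposited table holds raw counts per gene symbol, and another deposited table holds the authors' adjusted p-values and log2 fold changes. Neither the annotation nor the strand setting is given in the sources used here. Groups came from the sample titles.

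Counts were fitted with edgeR 4.0.16 (R 4.3.3): filterByExpr (minimum count 10, minimum total 15), TMM, 1 coefficient per group and quasi-likelihood tests adjusted by Benjamini-Hochberg over 13722 genes. The SE is the size of the log2 fold change over the square root of F, and intervals use the t distribution. The script was tested on simulated data. The 2 libraries of each group differed beyond counting noise (chi-square per degree of freedom, 7.09 to 13.1). The 10 genes and all lists were chosen with earlier results of these data known. The rule also named Kat5, the called gene with the smallest p per pathway list and line, and the gene whose log2 CPM (prior count 2) correlated most with each of the 10. In the authors' deposited table the log2 fold changes of the 10 genes were within 0.476 of those here. Alternatives were DESeq2 1.42.0, RLE factors, library totals, no filter, removal of a per-library trend on GC content and transcript length (known for 96.2% of tested genes), a replicate block, the 2 groups alone, and each library left out.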

Additional observations from a re-analysis of the deposited data

Results flagged for a closer look

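For 7 of the 10 genes the response to 4-OHT differed between the lines by the test of the difference itself (edgeR quasi-likelihood on the interaction), as it did for 61.9% of all tested genes. The response of MATIP minus that of MAflox cells was 3.48 for Nlrp3, 0.87 for Tnf and 0.57 for Il1rn on the log2 scale. It was −1.63 for Il1b, −1.08 for Il1r2, −0.57 for Casp4 and −0.37 for Pycard. Il1b, Il1r2 and Casp4 started higher in MATIP cells with EtOH, and their treated levels did not pass as different between the lines.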

How the results depend on the processing

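Of 740 values of single genes under the alternatives, 695 kept the direction and side of the threshold of the values reported, 25 lost a call, 11 gained one and 9 turned in sign. With the length and GC trend removed, the turned values were, for Casp1, −0.26 in MAflox cells, 0.50 for the difference of responses and 0.32 between treated lines, for Casp4 0.0508 for the difference and 0.59 between treated lines, and for Il1b 0.43 and Il1r2 0.22 between treated lines. Casp1 in MATIP cells turned to −0.0335 with scaling by library totals, and leaving out 1 library gave −0.0015 to 0.199. The number of the 10 genes that differed with EtOH was 5 to 8 when a library was left out, lowest without MAflox EtOH replicate 2. Scaling by library totals lowered the share of higher calls in MAflox cells from 50.8% to 38.8%. The cause of these changes was not tested. Same-numbered libraries of a line did not deviate together (r = −0.01 in MAflox and −0.09 in MATIP over 9805 genes), and over all 6 pairs of groups r ran from −0.15 to 0.22, so the numbers were not taken as pairs. With the replicate block, 8 and 9 of the 10 genes passed in MAflox and MATIP cells (Casp1 was lost in MAflox, edgeR adjusted p = 0.0543), 7 for the difference and 8 in each comparison of the lines (Il1r2 was gained after 4-OHT). The rises of Il1a, Il1b, Il1rn, Il1r2, Il18, Tnf, Casp4 and Pycard in both lines and of Nlrp3 in MATIP cells passed in all 15 alternatives. Depth limits Il1a, Il1b and Il18 with EtOH, where a library held 10 to 66 of their counts.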
